A study of Rattus norvegicus with 12 samples.

Results

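Bladder RNA was examined for 10 genes of 3 growth factor families and their receptors: the ligands Fgf2, Fgf7, Fgf10, Hgf, Pdgfa and Pdgfb, and the receptors Fgfr1, Fgfr2, Met and Pdgfrb. They were taken by symbol from a table of 40154 genes, and all 10 were listed and passed the expression filter, as did 17687 genes in all. The tissue was whole bladder of female Wistar rats, an outbred laboratory strain, aged 10 to 12 weeks, and the 4 groups had 3 libraries each: rats labelled normal control, with no word on sham surgery, and rats 7, 14 and 28 days after the cord had been cut through completely, at thoracic segment 10 in the sample labels and at segments 9 to 10 in the design text, which also gives 20 rats where 12 libraries are analysed here. Cutting the cord above the lumbosacral centres leaves a neurogenic bladder, which at first fails to empty and later contracts without control. The labels number the libraries but do not say which rat each came from, so the p-values below measure the spread between these libraries.

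These families signal from tissue layer to tissue layer. Fibroblasts and muscle make FGF7 (keratinocyte growth factor), FGF10 and HGF (hepatocyte growth factor), which are known as growth signals for urothelium through an epithelial form of FGFR2 and through MET. FGF2 acts on FGFR1 in stroma and vessels. PDGF-B from endothelium, platelets and macrophages draws pericytes, the cells that wrap small vessels, through PDGFRβ, whereas PDGF-A acts on PDGFRα of fibroblasts and interstitial cells. All of these receptors are tyrosine kinases that pass the signal to the Ras and ERK relay, which in turn induces its own inhibitors.

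Libraries held 26.3 to 30.7 M counts. Markers of urothelium, smooth muscle, fibroblasts, endothelium and macrophages were read in every library, as fits a whole bladder wall. Day-7 replicate 3 stood apart in haemoglobin transcripts, at 2.89% of counts, against 0.0341% to 0.370% in the other 11 libraries. No 2 libraries of a group agreed within sampling noise, their chi-square being 14.97 to 115 per degree of freedom. Levels are CPM, read counts scaled to library size, changes are log2 fold changes ± SE, and a gene was called higher or lower at an edgeR adjusted p under 0.05. Where a library is left out below, the model was fitted again without it.

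At day 7 the balance of these factors differed from control in both directions. Of the 6 ligands, Fgf7, Hgf and Pdgfb rose and Fgf10 fell, and of the 4 receptors Pdgfrb, Met and Fgfr1 rose. Thus 7 of 10 were called, 6 higher and 1 lower, where 26.1% of all tested genes were called (2757 higher, 1865 lower). The median change was 0.59 over the 10 and -0.006 over all tested genes. At day 14 Met alone of the 10 was called (higher; 2.45% of all tested genes, 257 higher and 176 lower), and at day 28 Hgf and Met were higher (18.5% of all tested genes, 1946 higher and 1329 lower). The 3 comparisons share their control libraries, and the 10 genes were chosen with earlier results of these data known. In bulk tissue, fewer cells of a type and less RNA per cell cannot be told apart, which holds for every value below.

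**Figure D1:**
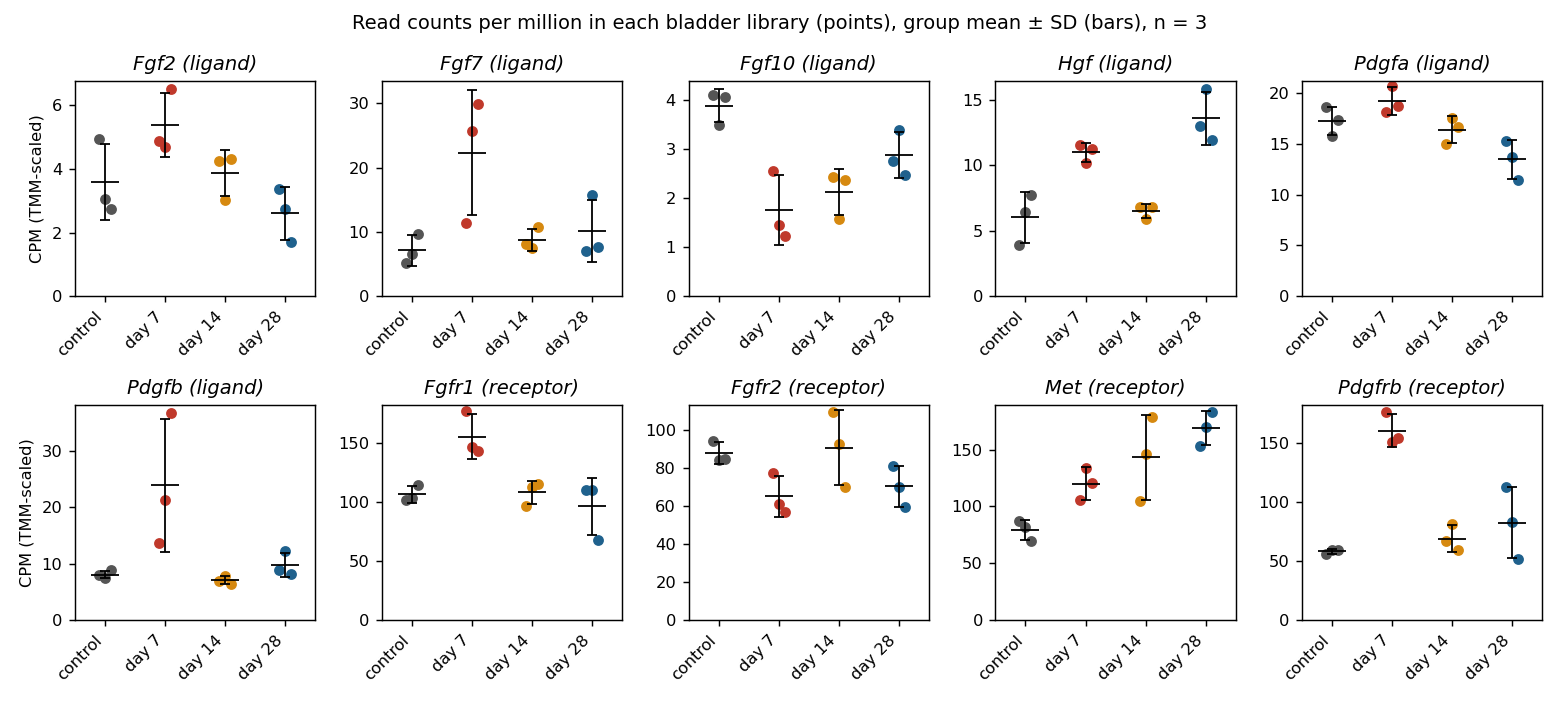
CPM of each of the 10 genes in each library (points), with group mean ± SD (n = 3 each), for controls and for days 7, 14 and 28 after cord transection. Pdgfrb lies at 151 to 176 CPM at day 7 against 55.7 to 59.6 CPM in controls, whereas Met is highest at day 28, at 153 to 183 CPM.

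Fgf7 lies at chr3:118315859-118368464 (rn6, plus strand). It had 5.12, 6.52 and 9.72 CPM in controls, 11.3, 25.7 and 29.9 CPM at day 7, 8.15, 7.46 and 10.8 CPM at day 14, and 7.00, 15.8 and 7.67 CPM at day 28. Every day-7 library lay above every control, and day-7 replicate 1 was the lowest of the 3 by far. The mean was 22.3 ± 9.76 CPM at day 7, against 7.12 ± 2.36 CPM in controls (SD, n = 3 each), a change of 1.65 ± 0.40 (adjusted p = 0.0114). Without control replicate 1 the change was 1.46 and the adjusted p 0.0527. Fgf7 was lower at day 14 than at day 7 (-1.34 ± 0.40, adjusted p = 0.0347), a call lost without day-7 replicate 2 (adjusted p = 0.107) or 3 (adjusted p = 0.123), and without day-14 replicate 1 (adjusted p = 0.103) or 2 (adjusted p = 0.0983). At day 28 it overlapped the controls and was not called (0.51 ± 0.40, adjusted p = 0.412). Day 28 against day 7 was not called either (-1.14 ± 0.39, adjusted p = 0.0660), but it was called without day-7 replicate 1 (-1.46, adjusted p = 0.0171), without day-28 replicate 2 (-1.60, adjusted p = 0.0235) and by DESeq2 (-1.14, adjusted p = 0.0216).

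Fgf10, the close relative of Fgf7 that binds the same epithelial receptor form, went the other way. It lies at chr2:51673480-51747533 (plus strand) and was counted thinly, with 34 to 118 counts per library. It had 4.11, 3.50 and 4.07 CPM in controls, 2.57, 1.46 and 1.23 CPM at day 7, 2.44, 1.58 and 2.37 CPM at day 14, and 2.77, 3.40 and 2.47 CPM at day 28. All 9 injured libraries lay below all 3 controls, with the day-28 library nearest to them at 3.40 CPM. The fall at day 7 was -1.15 ± 0.30 (adjusted p = 0.0164); it was lost without control replicate 1 (adjusted p = 0.0508), day-7 replicate 2 (0.0620) or day-7 replicate 3 (0.0563). The differences at day 14 (-0.87 ± 0.30, adjusted p = 0.149) and day 28 (-0.44 ± 0.29, adjusted p = 0.343) did not pass the test. Day 28 against day 7 differed by 0.72 ± 0.30 (adjusted p = 0.122), and by 1.09 without day-7 replicate 1 (adjusted p = 0.0227).

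Fgf2, a ligand without a classical secretion signal that is stored on heparan sulfate in the matrix, lies at chr2:124081072-124134133 (plus strand). It had 4.94, 3.06 and 2.75 CPM in controls, 4.88, 4.69 and 6.52 CPM at day 7, 4.26, 3.03 and 4.32 CPM at day 14, and 3.37, 2.73 and 1.70 CPM at day 28. Each injured group overlapped the controls, and no comparison with control was called (day 7: 0.58 ± 0.30, adjusted p = 0.184; day 28: -0.46 ± 0.31, adjusted p = 0.334). Day 28 was below day 7 in every library (-1.04 ± 0.31, adjusted p = 0.0355). This call was lost without day-7 replicate 2 (adjusted p = 0.0630) or 3 (0.119), without day-28 replicate 2 (0.0765) or 3 (0.118), and in a fit of the 2 groups alone (0.0679).

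Fgfr1, the stromal and vascular FGF receptor (chr16:71265390-71319046, minus strand), had 102, 104 and 115 CPM in controls, 177, 146 and 143 CPM at day 7, 97.0, 113 and 115 CPM at day 14, and 111, 110 and 68.2 CPM at day 28. The day-7 libraries stood above all others, and day-28 replicate 3 was the lowest of the 12. Fgfr1 rose by 0.54 ± 0.17 at day 7 (adjusted p = 0.0344), to 156 ± 18.8 CPM, against 107 ± 7.11 CPM in controls (SD, n = 3 each). The call did not survive leaving out any 1 of the 6 libraries compared (adjusted p = 0.0563 to 0.105, changes 0.43 to 0.60). It was lower than at day 7 both at day 14 (-0.52 ± 0.17, adjusted p = 0.0496) and at day 28 (-0.69 ± 0.17, adjusted p = 0.0161). The day-14 call was likewise lost without any 1 of its 6 libraries (adjusted p = 0.0754 to 0.164), with RLE scaling (0.0532) and with no expression filter (0.0524), and the day-28 call in a fit of the 2 groups alone (0.0655).

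Fgfr2, whose epithelial form receives FGF7 and FGF10 (chr1:200590951-200696946, minus strand), was the 1 receptor of the 4 with no call in any of the 6 comparisons in the fit over all 12 libraries, although other settings called it in 3 of them. It had 94.1, 83.8 and 84.6 CPM in controls, 77.1, 61.2 and 56.6 CPM at day 7, 109, 92.2 and 69.9 CPM at day 14, and 81.1, 69.9 and 59.3 CPM at day 28. The day-7 and day-28 libraries lay below every control, the day-14 libraries on both sides of them. The difference at day 7 was -0.43 ± 0.17 (adjusted p = 0.0870). It was called without day-7 replicate 1 (-0.58, adjusted p = 0.0368) and in a fit of the 2 groups alone (-0.44, adjusted p = 0.0356). Day 14 against day 7 differed by 0.48 ± 0.17 (adjusted p = 0.0733), called without day-7 replicate 1 (adjusted p = 0.0354), without day-14 replicate 3 (0.0229) and by DESeq2 (0.0394). Day 28 differed from control by -0.32 ± 0.17 (adjusted p = 0.225). A block for the replicate number, which the labels do not tie to an animal, called all 3: day 7 (adjusted p = 0.00998), day 28 (0.0428) and day 14 against day 7 (0.0110). The gene table does not separate the splice forms: in the transcript table, 11 transcripts of Fgfr2 and 10 of Fgfr1 are listed, and a read counts for every isoform that holds it.

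Hgf (chr4:15435460-15505377, minus strand) was high at days 7 and 28 and not at day 14. It had 3.90, 6.45 and 7.72 CPM in controls, 11.6, 10.2 and 11.3 CPM at day 7, 6.81, 5.91 and 6.80 CPM at day 14, and 13.0, 15.8 and 11.9 CPM at day 28. All libraries of days 7 and 28 lay above all of controls and day 14, which overlapped each other. Hgf rose at day 7 (0.87 ± 0.22, adjusted p = 0.0134) and at day 28 (1.18 ± 0.22, adjusted p = 0.00403), both called under all 11 alternatives run for them, while day 14 differed from control by 0.11 ± 0.22 (adjusted p = 0.853). Day 14 was lower than day 7 (-0.76 ± 0.22, adjusted p = 0.0313), and day 28 higher than day 14 (1.06 ± 0.22, adjusted p = 0.0234). The first of these was lost without any 1 of its 6 libraries (adjusted p = 0.0607 to 0.0898). The second was lost without day-14 replicate 1 (0.0613) or 2 (0.0817), without day-28 replicate 2 (0.0865), and in a fit of the 2 groups alone (0.0634). At day 28 against day 14 the 10 genes gave 1 call, where 4.34% of all tested genes were called (553 higher, 215 lower).

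Met, the HGF receptor (chr4:44747467-44854628, plus strand), was higher than control at all 3 days. It had 86.7, 82.0 and 69.6 CPM in controls, 105, 134 and 121 CPM at day 7, 104, 146 and 178 CPM at day 14, and 153, 170 and 183 CPM at day 28. No injured library overlapped the controls, and day 14 was the most scattered group. The changes were 0.59 ± 0.17 at day 7 (adjusted p = 0.0271), 0.85 ± 0.17 at day 14 (adjusted p = 0.0342) and 1.09 ± 0.18 at day 28 (adjusted p = 0.00185), the last being 169 ± 14.9 CPM at day 28, against 79.5 ± 8.86 CPM in controls (SD, n = 3 each). No difference between the injured groups was called: day 28 against day 7 gave 0.49 ± 0.17 (adjusted p = 0.0698), which DESeq2 (0.0403) and a fit of the 2 groups alone (0.0451) did call. The day-28 call held under all 11 alternatives. The day-7 call was lost without control replicate 2 (adjusted p = 0.0667) or control replicate 3 (0.0996), and without day-7 replicate 2 (0.108) or 3 (0.0730). The day-14 call was lost without any control (adjusted p = 0.102 to 0.134), without day-14 replicate 2 (0.0627) or 3 (0.106), and in a fit of the 2 groups alone (0.0517).

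Pdgfb (chr7:121215458-121233092, minus strand) was called against control at day 7 and not at days 14 (-0.19 ± 0.30, adjusted p = 0.800) and 28 (0.28 ± 0.29, adjusted p = 0.564). It had 7.94, 7.47 and 8.79 CPM in controls, 13.6, 21.3 and 36.7 CPM at day 7, 6.95, 7.80 and 6.41 CPM at day 14, and 8.91, 12.3 and 8.15 CPM at day 28. Every day-7 library lay above all 9 others, and the highest, replicate 3, is the library with the most haemoglobin transcripts. Pdgfb rose by 1.57 ± 0.30 at day 7 (adjusted p = 0.00308), and it was lower at day 14 (-1.76 ± 0.30, adjusted p = 0.00262) and day 28 (-1.29 ± 0.29, adjusted p = 0.0116) than at day 7. The first 2 of these calls held under all 11 alternatives, with changes at day 7 of 1.10 to 1.84. Without day-7 replicate 3, the day-28 difference from day 7 was -0.83 (adjusted p = 0.0391), and a fit of the 2 groups alone lost it (adjusted p = 0.0560).

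Pdgfrb, the receptor of PDGF-B on pericytes and other mural cells (chr18:56364586-56406381, plus strand), gave the smallest adjusted p of the 10 at day 7. It had 55.7, 59.1 and 59.6 CPM in controls, 176, 151 and 154 CPM at day 7, 66.8, 81.2 and 59.1 CPM at day 14, and 113, 83.3 and 51.8 CPM at day 28. The day-7 libraries lay far above all others, and the day-28 libraries ran from below the controls to well above them. The rise at day 7 was 1.46 ± 0.22 (adjusted p = 0.000898), 2.76 times the control mean, and it was called under all 11 alternatives. Pdgfrb was lower than at day 7 both at day 14 (-1.22 ± 0.22, adjusted p = 0.00381) and at day 28 (-0.96 ± 0.22, adjusted p = 0.0121), the day-28 call being lost in a fit of the 2 groups alone (0.0537). At day 28 it differed from control by 0.51 ± 0.22 (adjusted p = 0.138), and without day-28 replicate 3 by 0.75 (adjusted p = 0.00992).

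Pdgfa (chr12:17734141-17756186, plus strand), the ligand of PDGFRα, had the narrowest range of the 10, its highest library being at 1.81 times its lowest. It had 18.6, 15.8 and 17.3 CPM in controls, 18.1, 20.7 and 18.7 CPM at day 7, 14.9, 17.5 and 16.6 CPM at day 14, and 15.2, 13.7 and 11.4 CPM at day 28. Days 7 and 14 overlapped the controls, and the day-28 libraries lay just below them. No comparison with control was called (day 7: 0.16 ± 0.13, adjusted p = 0.407; day 28: -0.36 ± 0.13, adjusted p = 0.0805), although day 28 was without day-28 replicate 1 (-0.46, adjusted p = 0.0414). Day 28 was lower than day 7 (-0.51 ± 0.13, adjusted p = 0.0189). This was lost without day-7 replicate 2 (adjusted p = 0.0756), without day-28 replicate 3 (0.0704) and in a fit of the 2 groups alone (0.0611).

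**Figure D2:**
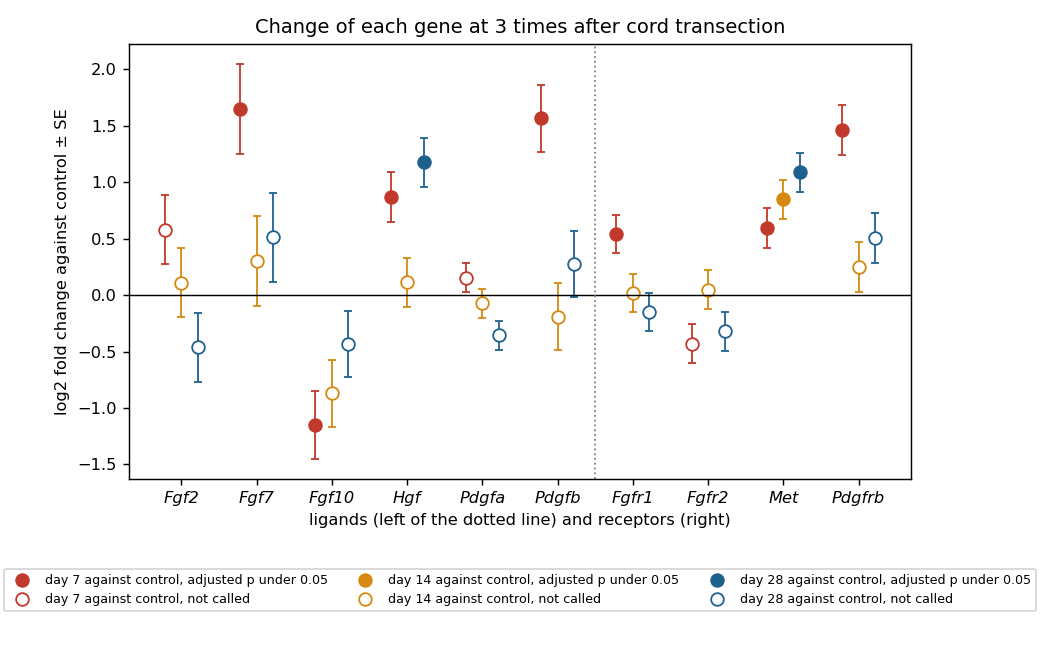
Log2 fold change ± SE against control for each of the 10 genes at days 7, 14 and 28, ligands left of the dotted line and receptors right. Filled points passed the edgeR test: 7 at day 7, 1 at day 14 (Met) and 2 at day 28 (Hgf and Met).

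Set against day 7, 5 of the 10 genes were lower at day 14 (Fgf7, Hgf, Pdgfb, Fgfr1 and Pdgfrb) and none was higher, where 19.5% of all tested genes were called (2114 lower, 1343 higher). At day 28, 5 were lower than at day 7 (Fgf2, Pdgfa, Pdgfb, Fgfr1 and Pdgfrb) and none was higher, where 18.7% of all tested genes were called (1915 lower, 1395 higher). DESeq2 called 5 lower and 1 higher at day 14, and 6 lower and 1 higher at day 28. The median change over the 10 was -0.50 at day 14 and -0.60 at day 28 relative to day 7, and 0.008 over all tested genes in both. Both contrasts use the same day-7 libraries that gave the rises over control at day 7. These counts rest on single libraries in part. Day 7 against control gave 4 genes higher and none lower, in place of 6 and 1, without control replicate 1, day-7 replicate 2 or day-7 replicate 3. Day 14 against day 7 gave 2 lower without day-7 replicate 2 or 3 or day-14 replicate 1 or 2, and day 28 against day 7 gave 3 lower without day-7 replicate 2 or day-28 replicate 3. In a fit of the 2 groups alone, day 28 against day 7 called none of the 10 lower and 1 higher (Met), and day 14 against control and day 28 against day 14 called none.

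The promoters of the 4 ligands that passed the test at day 7 are shown because 3 of them rose and 1 fell, with Fgf7 and Fgf10 in opposite directions. Of the 10 genes, 8 were matched by symbol in the RefSeq promoter table (rat assembly GRCr8), which holds 250 bases before and 50 after each start. Capitals mark matches, on either strand, to the GC box, whose letters are GGGCGG, and to the CCAAT box, named by its letters. They also mark the TATA box, searched as TATAAA, and a match on the other strand appears as the reverse complement of these letters.
Fgf7, chr3:133735377-133735676, plus strand, which rose: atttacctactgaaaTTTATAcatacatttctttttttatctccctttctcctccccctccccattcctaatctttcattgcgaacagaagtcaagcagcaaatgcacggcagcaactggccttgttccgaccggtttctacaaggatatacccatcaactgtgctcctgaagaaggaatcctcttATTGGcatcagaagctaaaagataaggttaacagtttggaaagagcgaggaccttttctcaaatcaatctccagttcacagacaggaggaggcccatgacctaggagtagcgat
Hgf, chr4:19700418-19700717, minus strand, which rose: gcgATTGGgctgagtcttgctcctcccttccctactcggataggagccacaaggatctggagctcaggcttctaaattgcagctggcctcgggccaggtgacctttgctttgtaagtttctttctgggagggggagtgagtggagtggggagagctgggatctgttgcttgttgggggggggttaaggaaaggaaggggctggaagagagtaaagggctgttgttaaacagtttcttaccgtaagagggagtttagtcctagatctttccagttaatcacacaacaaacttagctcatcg
Pdgfb, chr7:113438294-113438593, minus strand, which rose: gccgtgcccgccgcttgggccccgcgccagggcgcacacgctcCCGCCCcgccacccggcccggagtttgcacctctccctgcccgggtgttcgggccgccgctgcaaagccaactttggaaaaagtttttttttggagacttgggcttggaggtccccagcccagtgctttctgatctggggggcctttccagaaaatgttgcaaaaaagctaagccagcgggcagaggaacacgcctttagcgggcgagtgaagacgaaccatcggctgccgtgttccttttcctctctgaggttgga
Fgf10, chr2:52533689-52533988, plus strand, which fell: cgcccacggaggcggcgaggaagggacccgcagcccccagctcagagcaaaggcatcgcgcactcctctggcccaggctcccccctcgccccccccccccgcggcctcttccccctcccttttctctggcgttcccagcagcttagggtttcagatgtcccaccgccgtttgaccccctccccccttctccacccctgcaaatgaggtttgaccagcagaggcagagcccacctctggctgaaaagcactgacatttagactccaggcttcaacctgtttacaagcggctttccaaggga
The start that the Fgf7 window surrounds lies 1070 bases inside the edge of the RefSeq gene and that of the Met window, not printed, 27923 bases inside it, whereas the other 6 lie at the edge. The Fgf7 window held a match to the CCAAT box at -64 and to the TATA box at -235. That of Hgf held a CCAAT box at -247 and that of Pdgfb a GC box at -207. Positions are those of the first matched base relative to the start, and matches were by letters alone. In the Fgf10 window none of the motifs searched was found. Over the 8 windows a GC box was found in 3 (Pdgfa, Pdgfb and Fgfr2), a CCAAT box in 3 (Fgf7, Hgf and Fgfr2) and a TATA box in 1 (Fgf7), against 33.1%, 37.5% and 14.2% of 33469 promoters. A STAT motif (TTCNNNGAA) was found in those of Fgf2 and Pdgfa and in 8.87% of all. Motifs for AP-1 (TGANTCA, 7.33% of all), an E-box (CACGTG, 6.42%), ETS (CCGGAAGT, 3.81%) and the CArG box (1.64%) were in none of the 8. GC content was 43.7% in the Fgf7 window, 51.3% in Hgf, 62.0% in Pdgfb and 64.0% in Fgf10. No motif searched was shared by the 3 windows of the ligands that rose.

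Levels can be compared between genes only per length, in the authors' TPM, which divide counts by gene length and library size. The order of the genes thus depends on the length taken for each. In controls the order of the means was Fgfr1 (52.9 ± 2.80 TPM), Met (25.2 ± 3.16), Fgfr2 (22.9 ± 1.82), Pdgfrb (21.1 ± 0.487), Pdgfa (12.9 ± 1.18), Fgf10 (12.3 ± 1.12), Pdgfb (9.65 ± 0.720), Fgf2 (7.23 ± 2.50), Fgf7 (3.70 ± 1.17) and Hgf (3.20 ± 0.993 TPM; SD, n = 3 throughout). The receptors thus stood above the ligands. Libraries of these neighbours overlapped: Met with Fgfr2, Pdgfa with Fgf10, Pdgfb with Fgf2, and Fgf7 with Hgf. At day 7 Fgfr1 (70.9 ± 12.5 TPM) was followed by Pdgfrb (53.4 ± 7.36), whose libraries overlapped it, then Met (34.7 ± 4.75) and Pdgfb (25.6 ± 10.7), with Fgf10 last at 5.12 ± 2.35 TPM. At day 14 Fgfr1 (55.1 ± 3.99 TPM) and Met (46.4 ± 11.4 TPM) overlapped at the top and Hgf was last at 3.57 ± 0.340 TPM. At day 28 Met was first (54.4 ± 4.62 TPM), overlapping Fgfr1 (48.7 ± 12.7 TPM), and Fgf2 last (5.33 ± 1.74 TPM).

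**Figure D3:**
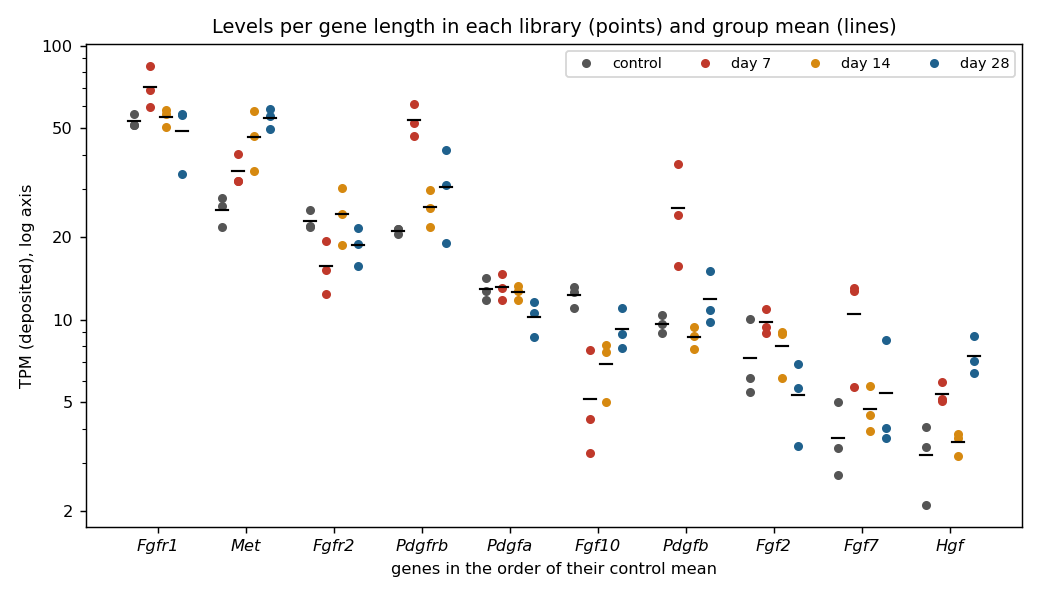
Deposited TPM of each gene in each library (points; log axis) with group means (lines), for controls and days 7, 14 and 28, in the order of the control mean. Fgfr1 leads in controls at a mean of 52.9 TPM, whereas Met leads at day 28 at 54.4 TPM.

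Ratios of TPM within a library, chosen after the counts had been seen and given as descriptions, show the changed balance. Fgf7 over Fgf10 averaged 0.303 ± 0.0945 in control libraries, 2.56 ± 1.68 in day-7 libraries, 0.695 ± 0.124 in day-14 libraries and 0.567 ± 0.181 in day-28 libraries. By TPM, Fgf10 thus stood above Fgf7 in every library of controls, day 14 and day 28, and in day-7 replicate 1, where the ratio was 0.731. In day-7 replicates 2 and 3 Fgf7 stood above Fgf10, at ratios of 2.92 and 4.03. These TPM divide by 3915 bases for Fgf7 and 648 bases for Fgf10. A shorter Fgf7 transcript of 693 bases is also listed, with 54 to 95 counts in controls, against 96 to 118 for Fgf10. By that transcript Fgf10 was likewise the more abundant of the 2 in controls. At day 7 the transcript had 124 to 322 counts, against 34 to 70 for Fgf10, so in day-7 replicate 1 the order depends on the length taken. Fgfr1 over Fgfr2 averaged 2.32 ± 0.262 in control libraries, 4.56 ± 0.219 in day-7 libraries (4.35 to 4.79), 2.37 ± 0.724 in day-14 libraries and 2.58 ± 0.406 in day-28 libraries. Pdgfb over Pdgfa averaged 0.750 ± 0.0652 in control libraries, 1.99 ± 1.01 in day-7 libraries, 0.690 ± 0.0670 in day-14 libraries and 1.17 ± 0.250 in day-28 libraries (SD, n = 3 each). Met over Hgf ranged widely in controls, from 5.35 to 13.2, which overlapped every injured group, and from 6.37 to 9.12 at day 28. Days 7 and 14 did not overlap each other: the ratio was at most 7.81 in day-7 libraries, against 9.099 to 15.6 in day-14 libraries.

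Other genes of these pathways, 94 in 6 lists, were read from the same fit, and 84 passed the filter. At day 7, 25 were higher and 12 lower, with a median change of 0.19, so that 44.0% were called, against the 26.1% of all tested genes. At day 14, 1 was higher and 1 lower (2.38%, against 2.45% of all tested genes), with a median of -0.01. At day 28, 7 were higher and 8 lower, with a median of 0.01, and the 17.9% called lay at the 18.5% of all tested genes. The list counts that follow are to be read against the same shares, and the lists were chosen with earlier results of these data known. Named below are up to 3 genes of each list with the smallest p at day 7 and up to 2 at day 28.

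The list of other FGF genes held secreted ligands, FGF homologous factors and the FGF-binding protein genes Fgfbp1 and Fgfbp3. Of its 9 tested genes, 2 were higher and 3 lower at day 7. Fgf9, a secreted FGF, rose by 1.56 ± 0.42 (adjusted p = 0.0177; 6.16, 6.15 and 3.48 CPM at day 7, against 1.64, 1.38 and 2.32 CPM in controls), a call lost without control replicate 1 (0.0638), control replicate 2 (0.0709) or day-7 replicate 2 (0.0633). Fgf13 and Fgf11 encode FGF homologous factors, which stay inside the cell and bind sodium channels. At day 7 Fgf13 was lower (-2.07 ± 0.41, adjusted p = 0.00388), as was Fgf11 (-1.03 ± 0.21, adjusted p = 0.00472). At day 28 the differences were -1.37 ± 0.39 for Fgf13 (adjusted p = 0.0316) and -0.68 ± 0.21 for Fgf11 (adjusted p = 0.0426). Replicates 2 and 3 of both groups each ended the day-28 call of Fgf13 when left out (adjusted p up to 0.11), and replicates 1 and 2 of both groups that of Fgf11 (up to 0.152). Fgf14, Fgf20, Fgf21, Fgf22 and Fgf23 were below the filter. The PDGF ligands Pdgfc and Pdgfd were not called at day 7 (0.59, adjusted p = 0.0667, and -0.02) or at day 28; DESeq2 called Pdgfc at day 7 (adjusted p = 0.0431).

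Among 18 further receptors and co-receptors, 7 rose and 4 fell at day 7. Nrp1 (neuropilin 1, a co-receptor in vessels and other cells) rose to 156, 167 and 135 CPM, against 67.4, 70.7 and 71.7 CPM in controls (1.13 ± 0.12, adjusted p = 0.000162). Of the heparan sulfate proteoglycans, which hold FGFs at the cell surface, Gpc1 rose (0.85 ± 0.16, adjusted p = 0.00256) and Sdc4 fell (-0.56 ± 0.12, adjusted p = 0.00545) at day 7. At day 28, 2 of the 18 were higher and 4 lower, among them Sdc2 (-1.06 ± 0.19, adjusted p = 0.00296) and Flrt3, a membrane protein that binds FGF receptors (-0.75 ± 0.15, adjusted p = 0.00590). Pdgfra, the receptor of PDGF-A, lies outside the naming rule and is given because Pdgfrb rose: it had 255, 299 and 216 CPM at day 7, against 201, 193 and 228 CPM in controls, and was not called (0.31 ± 0.17, adjusted p = 0.209). Pdgfrb over Pdgfra, per length, averaged 0.360 ± 0.0295 in control libraries, 0.813 ± 0.147 in day-7 libraries, 0.649 ± 0.0582 in day-14 libraries and 0.520 ± 0.242 in day-28 libraries. At day 14 Pdgfra had 120, 173 and 119 CPM, below every control, though no gene of this list was called then. Pdgfrb overlapped its controls at day 14 (59.1 to 81.2 CPM, against 55.7 to 59.6 CPM), so lower Pdgfra enters the day-14 ratio.

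HGF is secreted inactive and is cut by serine proteases, and a list of 10 tested genes around that step gave 3 rises and 2 falls at day 7. The list also counts the receptor gene Plaur and Mst1, which encodes neither an enzyme nor an inhibitor of that step. The plasminogen activator genes Plau (2.09 ± 0.52, adjusted p = 0.0133) and Plat (1.29 ± 0.28, adjusted p = 0.00599) rose, the call for Plau being lost without control replicate 2 (0.0556) or day-7 replicate 3 (0.0539). At day 28 St14, the membrane protease matriptase, was higher (0.86 ± 0.22, adjusted p = 0.0186) and Mst1, an HGF-like protein, lower (-1.76 ± 0.46, adjusted p = 0.0210). Without 1 library these became 0.0512 to 0.0793 for St14 (leaving out control replicate 2, control replicate 3 or day-28 replicate 3) and 0.0575 to 0.0653 for Mst1 (the same libraries).

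Of 25 adaptor and relay genes, 5 rose and 1 fell at day 7, with a list median of 0. Shc1, an adaptor that links receptors to Ras, rose by 0.91 ± 0.12 (adjusted p = 0.000472), the docking protein gene Gab2 by 0.72 ± 0.10 (adjusted p = 0.000530) and the kinase gene Akt1 by 0.51 ± 0.09 (adjusted p = 0.00182). At day 28 Gab2 was the 1 called gene of the list (0.35 ± 0.10, adjusted p = 0.0290; lost without any control or day-28 replicate 1 or 2, up to 0.107), and Cbl, a ubiquitin ligase that turns receptors over, was not called (0.24). The feedback inhibitors and targets of receptor tyrosine kinases had the highest list median at day 7, 0.78 over 20 tested genes, of which 8 rose and 2 fell. Spred3 (1.06 ± 0.20, adjusted p = 0.00302) and the ETS factor gene Etv5 (0.89 ± 0.17, adjusted p = 0.00369) rose, while Spred2 fell (-0.48 ± 0.10, adjusted p = 0.00516); SPRED proteins restrain the Ras and ERK relay. At day 28 the list median was 0.14, with 2 higher and 1 lower. The ERK phosphatase genes Dusp4 (2.18 ± 0.60, adjusted p = 0.0260) and Dusp5 (1.33 ± 0.34, adjusted p = 0.0200) were higher then, and each was lost without any control or day-28 replicate 2 or 3 (adjusted p up to 0.0941 for Dusp4 and 0.0718 for Dusp5).

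**Figure D4:**
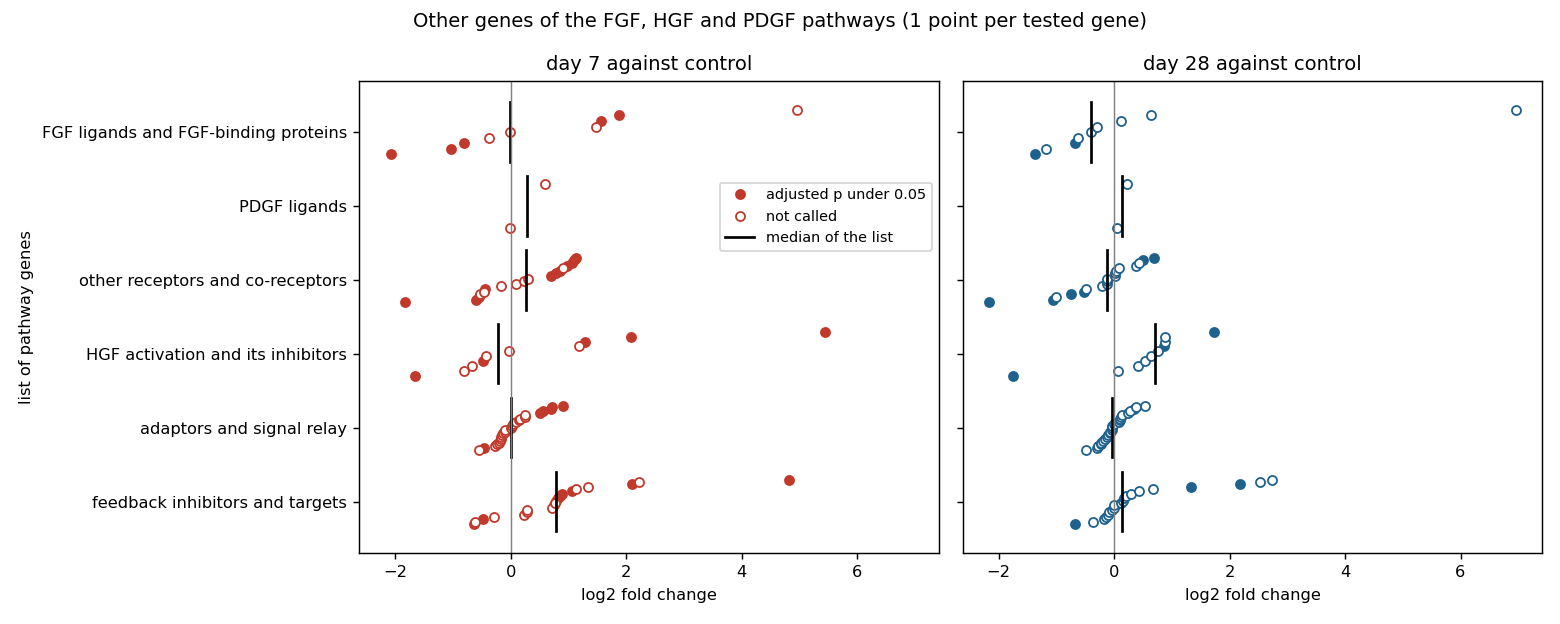
Log2 fold change against control of the 84 tested genes in 6 lists of other pathway genes, at day 7 (left) and day 28 (right); filled points passed the test and black bars are list medians. The feedback list has its median at 0.78 at day 7 and 0.14 at day 28.

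Markers of the cells that make or receive these factors changed alongside. For the endothelium, 8 of 9 markers rose at day 7 (summed level 636 to 758 CPM at day 7, against 213 to 242 CPM in controls) and 6 of 9 at day 28 (332 to 514 CPM). Of 7 pericyte markers, Notch3 and Rgs5 rose and Abcc9 and Mcam fell at day 7. The sum of the 7 overlapped control at day 7 (688 to 768 CPM, against 726 to 745 CPM in controls). It lay below every control at day 14 (548 to 587 CPM, with 1 marker lower) and at day 28 (427 to 615 CPM, with 1 higher and 2 lower). Of 6 tested platelet markers 3 rose at day 7 (sum 73.9 to 81.2 CPM at day 7, against 47.3 to 52.4 CPM in controls), with Ppbp and Gp9 at 0 in 2 libraries each. All 10 macrophage markers rose at day 7 (1024 to 1148 CPM) and at day 28 (1131 to 1454 CPM), against 327 to 377 CPM in controls, and at day 14 3 of 10 did (440 to 791 CPM). Fibroblast markers, 4 of 10 up and 1 down at day 7, summed to 20834 to 24961 CPM at day 7 and 6111 to 11222 CPM at day 28, against 15376 to 19513 CPM in controls, with 1 up and 5 down at day 28. Most of that sum was Col1a1, a fibrillar collagen gene singled out after its values were seen, which averaged 19222 CPM at day 7, against 10273 CPM in controls, and was not called (0.90, adjusted p = 0.0509). Without Col1a1 the other 9 fibroblast markers summed to 3150 to 5284 CPM at day 7 and 3454 to 5263 CPM at day 28, against 7126 to 8787 CPM in controls, and Gsn, the 1 that fell at day 7, had 570 CPM at day 7, against 3371 CPM in controls (-2.56, adjusted p = 9.60e-05). Urothelial markers, 7 of 15 lower and none higher at day 7, summed to 6290 to 7877 CPM at day 7, against 9617 to 10257 CPM in controls, and at day 28 to 7746 to 10306 CPM with 6 lower and 1 higher, while Met was higher at both days. Smooth muscle markers, 4 of 9 up and 2 down at day 7, summed to 26142 to 43323 CPM at day 7, overlapping the 25022 to 27904 CPM of controls. At day 28 they summed to 10724 to 23355 CPM, with 2 lower. Day-28 replicate 3 had the lowest smooth muscle, pericyte and fibroblast sums of its group. Cell cycle genes, 9 of 9 higher at day 7, summed to 541 to 739 CPM at day 7, against 105 to 124 CPM in controls. At day 28, 6 of 9 were higher (151 to 298 CPM). Of the T and NK cell markers 1 of 7 tested rose at day 7 and 6 at day 28, and of the neutrophil markers 4 of 7 and 2 of 7. Of the Schwann cell markers 4 of 7 were lower at day 7 and 3 of 7 at day 28. The part of these cell types in the changes above was not tested.

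The genes whose pattern over the 12 libraries was most like each of the 10 were found among 10997 genes by the root mean square difference of centred log2 CPM, where a smaller value is more alike. Nearest to Pdgfrb were Serpinb9 (0.15) and Wipi1 (0.18), and to Pdgfb Prickle1 (0.21) and Chsy1 (0.24), against a spread of 0.61 and 0.72 of those 2 genes about their own means. For Fgf7 they were Gja5, a gap junction gene (0.18), and Chst11 (0.32), and for Fgf10 Efcc1 and Sept6 (both 0.22). The nearest to Hgf were Inpp4b (0.20) and Tmsb4x (0.27), and to Met Trim25 (0.15) and Zfp710 (0.19). Fgf2 was nearest to Fzd2 (0.21) and Rassf8 (0.23), and Pdgfa to Klc1 (0.06) and Hk1 (0.08). Fgfr1 was nearest to Lhfp and Heg1 (both 0.09) and Fgfr2 to Chd6 and Thsd4 (both 0.09). These are descriptions over libraries that share their groups and scaling.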

How the data were processed

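Per the labels' protocols, ribosomal RNA was depleted from total bladder RNA with a RiboMinus kit, and Illumina TruSeq libraries were sequenced as single reads of 50 bases. The rat build was rn6, and bcl2fastq, HTSeq 0.11.2 and HISAT2 2.1.0 are the tools listed, with no role or order, per the submitters' processing notes. The authors deposited raw counts per gene, gene length and TPM, per the file headers; TPM recomputed here from counts and length differed by at most 2.6e-10. Transcript counts, also deposited, were used only to list isoforms and to set the short Fgf7 transcript against Fgf10.

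Groups came from the sample titles. Genes passing filterByExpr (minimum count 10, total 15) went into edgeR 4.0.16 under R 4.3.3 (TMM scaling, 1 quasi-likelihood model over the 12 libraries, Benjamini-Hochberg adjustment within each of 6 comparisons, tested on simulated data). The SE is the absolute log2 fold change over the square root of F. Each setting was changed in turn: RLE size factors, DESeq2 1.42.0, no filter, only the 2 groups compared, a replicate block, and leaving out each library. Marker and pathway lists, like the 10 genes and the comparisons, were chosen with earlier results of these data known. Pathway genes were named by smallest p, up to 3 per list at day 7 and 2 at day 28, and for each of the 10 genes the 2 nearest patterns at a mean CPM of at least 5. A gene that this rule selects is not reported here. The sources used here do not say whether strand was used in counting. Another gene on the opposite strand overlaps 4 of the 10: Fam227b (664 counts in all) for Fgf7 (4142), and long non-coding RNAs of 109, 15 and 26 counts for Hgf, Pdgfb and Pdgfrb. Promoters came from RefSeq (GRCr8), and plots from matplotlib 3.10.9.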

Additional observations from a re-analysis of the deposited data

Results flagged for a closer look

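Differences between the times after injury passed the test for 7 of the 10 genes, and each is a direct contrast of injured groups. Between day 14 and day 7, Pdgfb differed by -1.76, Fgf7 by -1.34, Pdgfrb by -1.22, Hgf by -0.76 and Fgfr1 by -0.52 on the log2 scale. Between day 28 and day 7 the differences were -1.29 for Pdgfb, -1.04 for Fgf2, -0.96 for Pdgfrb, -0.69 for Fgfr1 and -0.51 for Pdgfa. Hgf alone of the 10 differed between day 28 and day 14, by 1.06. Leaving out 1 library ended the calls for Fgf2, Fgf7, Hgf, Pdgfa and, at day 14, Fgfr1, while those for Pdgfb and Pdgfrb at day 14 held without any 1 library.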

How the results depend on the processing

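The count of genes called over the whole table depended most on the setting at day 14. Against control at day 14 it was 433, with DESeq2 1360, and 16 to 504 when 1 library was left out. For day 28 against day 14 it was 768, with DESeq2 1647, in a fit of the 2 groups alone 42, and 261 to 1120 with a library left out. For day 14 against day 7 it was 3457, in a fit of the 2 groups alone 2195, and 1959 to 3431. Leaving out a library gave 3061 to 4888 at day 7 against control (4622 with all), 1971 to 3283 at day 28 against control (3275) and 1954 to 3275 for day 28 against day 7 (3310). RLE size factors and DESeq2 changed no direction among the 10 genes.

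The labels give no shared animal, litter or day for a replicate number, so the libraries were treated as unpaired. The 18 same-numbered pairs correlated at -0.0216 to 0.151, 5 of them over 0.1, against -0.209 to 0.104 and 1 of 36 for differently numbered pairs. Of the 12 libraries 9 correlated best with their own number, a hint of a weak tie by number that comes from the data and not from the design. With a replicate block the counts were 4788, 460 and 3440 at days 7, 14 and 28 against control, 3662 for day 14 against day 7, 827 for day 28 against day 14 and 3463 for day 28 against day 7. Under the block Fgfr2 was called at day 7 (-0.44, adjusted p = 0.00998), day 28 (adjusted p = 0.0428) and day 14 against day 7 (0.0110), and Fgf7 at day 28 against day 7 (0.0400), while Fgfr1 at day 14 against day 7 was not (0.0648). Of the named pathway genes, Pdgfc at day 7 was called (0.0139) and Fgf11 at day 28 was not (0.0651).

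Sign changes arose only when a library was left out, in values never called. Against control at day 14 the ranges were -0.044 to 0.41 for Fgf2, -0.016 to 0.10 for Fgfr1, -0.10 to 0.21 for Fgfr2 and -0.12 to 0.34 for Hgf. At day 28 against control they were -0.27 to 0.050 for Fgfr1 and -0.14 to 0.14 for Pdgfd, and at day 7 -0.39 to 0.25 for Pdgfd. Day 28 against day 14 gave -0.26 to 0.40 for Fgf7, -0.30 to 0.028 for Fgfr1 and -0.047 to 0.50 for Pdgfrb, and day 28 against day 7 gave -0.016 to 0.25 for Fgfr2. The cause was not tested. Depth limits Fgf10 and Fgf2, with 34 to 180 counts per library. It also limits the pathway genes Fgf9 (25 to 177), Fgf13 (10 to 65), Mst1 (13 to 91) and Dusp4 (15 to 132).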
